A study of Mesocricetus auratus with 8 samples.

Results

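Baseline expression was examined in primary satellite cells (SCs) of the Syrian hamster cultured at 37 °C, the state from which the cold exposure of the study started. The samples described are the 4 control libraries of the 8 in the series, chosen by their labels alone, and every gene with values was included (17590 genes). SCs were isolated with collagenase from the hindlimb muscles of sexually mature wild-type male Slc:Syrian hamsters, a hibernating species, and were enriched by preplating and replating, which removes fibroblasts that attach early. The cells were grown on Matrigel in growth medium (GM), which is rich in serum and contains chick embryo extract and basic fibroblast growth factor, for 48 h, and then for 24 h in GM with 100 mM HEPES. Sorting by a surface protein was not part of the isolation, so each library is the average of a mixed culture. By the study's own staining, nearly all hamster cells isolated in this way carried Pax7 or MyoD. All 4 titles place sampling on day 3 of GM, whereas the treatment labels give 3, 4, 5 and 6 days at 37 °C for replicates 1, 2, 3 and 4, and the part of this difference in any spread between replicates was not tested. The study describes its 4 libraries as biological replicates, but whether each came from a separate animal is not stated, so the SDs below measure the spread between these cultures.

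Values are in TPM, a unit of transcript abundance in which read counts are divided by transcript length and each library is scaled to the same total, so levels of different genes in a library can be set side by side. With only 1 group there is no comparison between conditions. Where replicates 1 and 2 are set beside replicates 3 and 4, the pairing was seen in these values and is given by no label. Counts of genes by their highest library describe these 4 cultures only, because genes of a list are not independent of each other. The order of a pair of genes is given as the number of libraries that show it, because an exact two-sided sign-flip test over 4 libraries cannot give p below 0.125. Depth was even, at 16969797, 17768354, 16530747 and 18093905 expected counts in replicates 1 to 4, and a gene at 0 counts could still have been present at up to 3 counts, or 0.166 to 0.182 CPM (counts per total of all counts, scaled as TPM without the division by length). Intervals of that kind cover counting error only.

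SCs are the resident stem cells of skeletal muscle. In undisturbed muscle they are quiescent and carry the transcription factor Pax7. When isolated and cultured they enter the cell cycle as myoblasts and switch on the myogenic regulatory factors Myf5 and Myod1. As they leave the cycle they switch on Myog, after which genes for cell fusion and for the contractile apparatus follow. In muscle formation the developmental forms of the contractile proteins appear before the adult fast or slow forms, so that the choice among related genes marks how far the cells have gone.

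The transcriptome was broad, with its mass in few genes. Of the 17590 genes, 16121 had a count in at least 1 control library, 13920 had a count in all 4, and 1469 were at 0 in all 4. A level of at least 1 TPM in all 4 libraries was reached by 11097 genes (63.1%), of at least 10 TPM by 7275, of at least 100 TPM by 1394 and of at least 1000 TPM by 142. The 10 most abundant genes held 8.55% ± 0.284 of all TPM (SD, n = 4), the first 100 genes 36.5% ± 0.617 and the first 1000 genes 70.4% ± 0.892. Ranked by mean, 246 genes made up 50% of the TPM, and the number for single libraries was 234, 231, 254 and 261 in replicates 1 to 4. The genes at the top were short: 99 of the first 100 lay below the median length by the ratio of counts to TPM, and the same 100 genes took 15.4% ± 0.485 of the counts.

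**Figure D1:**
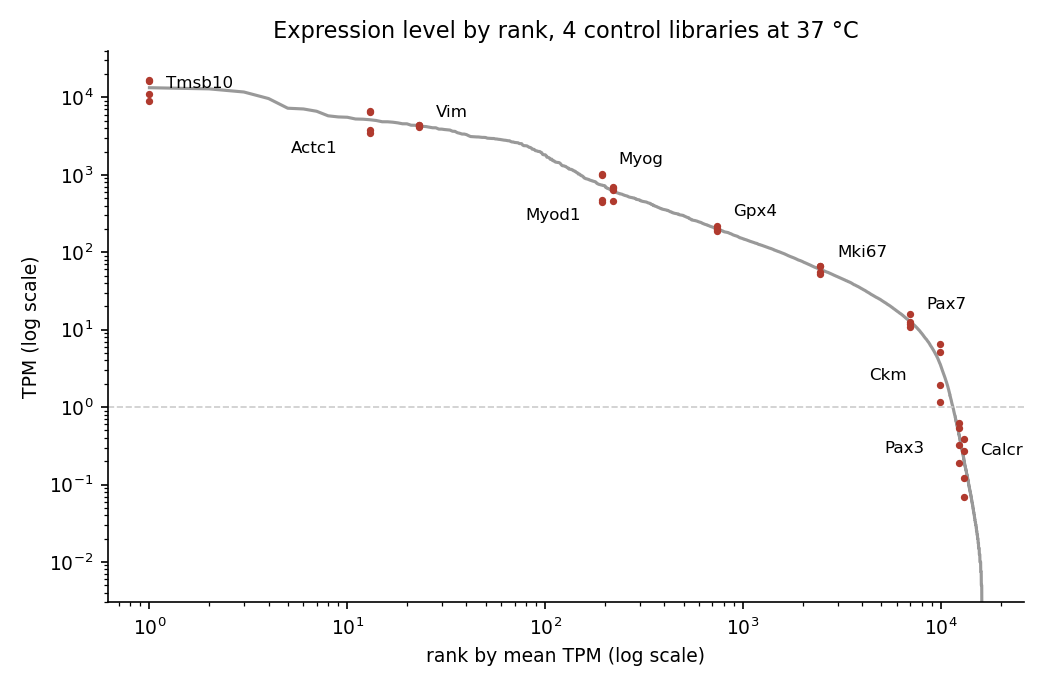
Mean TPM of each gene (grey line, log scale) against its rank by mean TPM (log scale) over the 4 control libraries at 37 °C. Red points are the values of single libraries for 11 named genes, and the dashed line marks 1 TPM. Actc1 and Vim lie among the first 25 genes, Myog and Myod1 near rank 200, and Pax7 at rank 6979.

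Protein synthesis and the cytoskeleton occupied the highest ranks. Genes of cytosolic ribosomal proteins filled 64 of the first 100 places and 13 of the first 25, and the 75 listed members with values together held 21.2% ± 0.261 of the TPM but 6.32% of the counts. The gene with the highest mean was Tmsb10, for the actin-binding peptide thymosin beta-10, at 16176, 16967, 11097 and 9105 TPM in replicates 1 to 4. It ranked 1, 1, 3 and 4 in those libraries, and replicates 3 and 4 were both below replicates 1 and 2. The related Tmsb4x was steadier, at 11195, 11722, 11874 and 12164 TPM, so the ratio of Tmsb10 to Tmsb4x was 1.45 in replicates 1 and 2, 0.934 in replicate 3 and 0.749 in replicate 4, and in counts its mean was 0.799. Eef1a1, the elongation factor that delivers aminoacyl-tRNA to the ribosome, was at 12888 ± 785 TPM and ranked 1 or 2 in every library. Its muscle and nerve counterpart Eef1a2 was at 0.458 ± 0.195 TPM. The cytoplasmic actins Actb (9660 ± 636 TPM) and Actg1 (5538 ± 166 TPM), the peptidyl-prolyl isomerase Ppia (7088 ± 130 TPM), the galectin Lgals1 (5228 ± 197 TPM) and the intermediate filament gene Vim (4295 ± 150 TPM) also lay among the first 25. Read counts of Ppia had decimals in all 4 libraries and those of Actb and Actg1 in 2 of 4, a sign that reads were divided between similar sequences, and 54 of the first 100 genes had such decimals. Of the first 100 genes, 12 carried no symbol other than a LOC number, including ranks 5, 14 and 22.

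The only muscle-restricted gene with a symbol in the first 25 was Actc1, for the cardiac alpha-actin that embryonic and regenerating skeletal muscle also uses. Its level was 6552, 6731, 3505 and 3793 TPM in replicates 1 to 4, and its rank 8, 8, 38 and 30. Acta1, the adult skeletal alpha-actin, was at 831, 841, 445 and 460 TPM in the same order. Both genes were lower in replicates 3 and 4, and the ratio between them hardly moved: Actc1 stood 7.89, 8.001, 7.88 and 8.25 times above Acta1.

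The regulators of the lineage covered a wide range of levels. Myog, the differentiation factor, was at 1008, 1016, 449 and 480 TPM (mean 738 ± 316), and Myod1, the determination factor, at 666, 694, 633 and 463 TPM (mean 614 ± 103). Myog was therefore above Myod1 in replicates 1, 2 and 4, at 1.51, 1.47 and 1.04 times, and below it in replicate 3, at 0.709 times. The ranges of both genes overlapped, so they did not separate in rank. Per read count, without division by length, the order was the other way, with a mean Myog to Myod1 ratio of 0.595. Myf5, which precedes Myog in the lineage, went the opposite way to it, at 99.85, 103, 182 and 202 TPM. Its rank was 1516 and 1474 in replicates 1 and 2 and 823 and 739 in replicates 3 and 4. Myf6, the factor of late differentiation and mature fibres, was lowest of the 4 regulators, at 20.5, 19.0, 11.0 and 9.96 TPM.

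The defining genes of the quiescent state were low, while some other genes listed as linked to it were not. Pax7 was at 10.8, 11.8, 15.8 and 12.5 TPM (12.7 ± 2.17), at rank 6979 by mean. It stood at 0.0162, 0.0170, 0.0249 and 0.0270 of the Myod1 level, and below Myog in all 4 libraries, where Myog was 93.4, 86.4, 28.4 and 38.4 times higher. Pax3, its paralog, was at 0.418 ± 0.198 TPM, and Calcr, the calcitonin receptor, found on quiescent SCs, at 0.213 ± 0.146 TPM. Spry1, an inhibitor of growth factor signalling linked to the return to quiescence, was at 16.8 ± 1.38 TPM. Over the list of 22 quiescence-associated genes, 13 reached a mean of 10 TPM and 5 reached 100 TPM, levels reached by 43.8% and 8.78% of all genes, and the sum was 1072, 1089, 943 and 879 TPM. The highest members were Peg3 (171 ± 21.6 TPM), Col5a1 (149 ± 17.7 TPM), the cyclin-dependent kinase inhibitor Cdkn1c (181, 180, 107 and 111 TPM), Hes6, of the Hairy and Enhancer of split family, (139 ± 44.9 TPM) and the proteoglycan Sdc4 (132 ± 25.2 TPM). Of these, Cdkn1c and Hes6 were higher in replicates 1 and 2, as Myog was, and Sdc4 was higher in replicates 3 and 4. Being on this list does not make a gene particular to quiescence.

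Genes of activated myoblasts and of early differentiation were abundant side by side. The list of 21 activated myoblast genes summed to 7344, 7276, 6912 and 6609 TPM, a ratio of highest to lowest of 1.11. Desmin (Des) was at 830 ± 105 TPM, the adhesion molecule Ncam1 at 324 ± 19.5 TPM and the laminin receptor chain Itga7 at 209 ± 31.2 TPM. Of 28 early differentiation genes with values, 22 reached 10 TPM and 11 reached 100 TPM, against 43.8% and 8.78% of all genes. Their list summed to 4899, 4733, 3311 and 3441 TPM, a ratio of 1.48. Cdkn1a, the p21 inhibitor that holds myoblasts out of the cycle as they differentiate, was at 829, 778, 656 and 643 TPM. Both genes for myoblast fusion were expressed, and they behaved differently. Mymk (myomaker) was at 366, 349, 147 and 178 TPM, whereas Mymx (myomixer) was at 282, 272, 262 and 267 TPM. The ratio of Mymx to Mymk was thus 0.770 and 0.780 in replicates 1 and 2 and 1.79 and 1.5 in replicates 3 and 4.

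**Figure D2:**
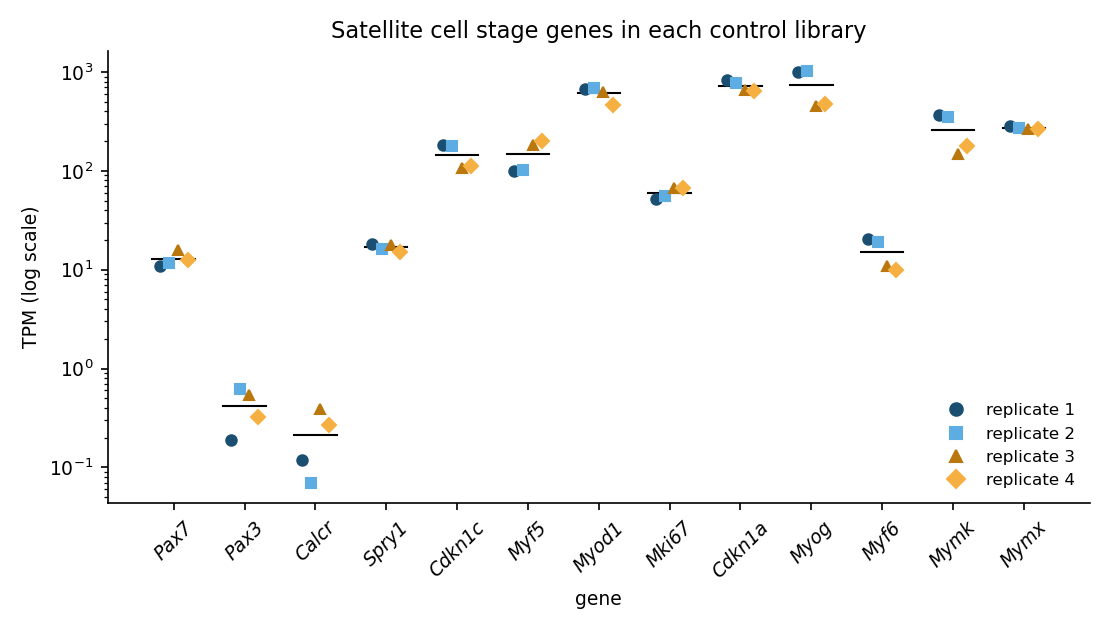
TPM (log scale) of 13 genes of the SC stages in each control library at 37 °C. Points are single libraries and black lines the mean of 4. Myog, Myf6 and Mymk are lower and Myf5 higher in replicates 3 and 4 than in replicates 1 and 2, while Mymx lies between 262 and 282 TPM.

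Cell cycle genes were expressed throughout. All 40 listed genes had a mean of at least 10 TPM and 16 of at least 100 TPM, against 43.8% and 8.78% of all genes. Their sum was 3778, 3779, 4115 and 4025 TPM, a ratio of highest to lowest of 1.09. Pcna, the sliding clamp of DNA polymerase, was highest, at 277, 262, 338 and 304 TPM. It was followed by the mitotic genes Cdc20 (229 ± 6.03 TPM), Ccnb1 (221 ± 7.38 TPM) and Ube2c (208 ± 8.47 TPM) and the replication helicase subunit Mcm7 (174 ± 16.6 TPM). Mki67, the usual proliferation marker, was at 51.6, 55.2, 66.5 and 66.9 TPM. The highest library was replicate 3 or 4 for 33 of the 40 genes, against 68.1% of all 11482 genes with a mean of at least 1 TPM. Among the D-type cyclins, which drive entry into the cycle, Ccnd1 and Ccnd3 stood in a different order between libraries: Ccnd1 was at 0.896 and 0.888 times Ccnd3 in replicates 1 and 2 and at 1.44 and 1.48 times in replicates 3 and 4. Without division by length Ccnd1 led, with a mean ratio of 2.56. Among the inhibitors of cyclin-dependent kinases Cdkn1a held 69.3% ± 0.850 of the family and Cdkn1c 13.6% ± 2.23.

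Other transcription factors of the lineage stood below the regulators. Of the 63 listed factors with values, 54 had a mean of at least 1 TPM. The 6 of at least 100 TPM, a level reached by 8.78% of all genes, were Myog, Myod1, Myf5 and the inhibitors of the E proteins Id2 (575 ± 37.7 TPM), Id3 (449 ± 53.6 TPM) and Id1 (254 ± 43.2 TPM). The ID proteins bind the partners of Myod1 and hinder its binding to DNA. Those partners were lower, with Tcf3 at 66.7 ± 4.71 TPM, Tcf4 at 42.6 ± 0.727 TPM and Tcf12 at 41.02 ± 1.87 TPM, the last from counts with decimals in all 4 libraries. Runx1, which myoblasts use after injury, was at 88.7, 87.8, 88.1 and 87.9 TPM, a ratio of highest to lowest of 1.01. The Mef2 factors cooperate with Myog, and here Mef2a held 52.3% ± 3.35 of their sum, Mef2d 31.9% ± 1.71 and Mef2c 15.8% ± 4.39. Mef2c was the least even of them, at 33.5, 30.4, 12.9 and 15.9 TPM. The list as a whole summed to 4300, 4381, 3772 and 3406 TPM.

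The contractile genes showed which form of each protein the cultures used. The values are sums per gene, and transcript isoforms of a gene could not be told apart, so the choice described is among paralogs. Of 39 families of paralogs examined, the leading gene held over 50% of the family's TPM in 31 and over 90% in 7, and it was above the second gene in all 4 libraries, with ranges that did not overlap, in 36. The exceptions were the regulatory factors, the D-type cyclins and troponin C. Shares are of the members with values, and in 7 families, the regulatory myosin light chains (5 of 8 symbols) among them, some symbols had none.

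Among sarcomeric myosin heavy chains, the embryonic Myh3 held 86.3% ± 0.946 and the adult fast Myh1 13.5% ± 0.994. Myh3 was at 486, 457, 247 and 273 TPM, and Myh1 at 74.6, 79.2, 38.9 and 38.6 TPM. Both were lower in replicates 3 and 4, while the share of Myh3 stayed between 85.1% and 87.4%. The adult fast genes Myh2 (0.280 ± 0.181 TPM) and Myh4 (0.595 ± 0.237 TPM) were at trace levels, and the slow Myh7b was at 0 counts in all 4 libraries. Counts of Myh3 and Myh1 had decimals in every library, a sign that reads were divided between similar sequences. The counts do not show which sequences these were, and the split is uncertain. Myh6, Myh7 and Myh8 had no row under those symbols and were not analysed here. Non-muscle Myh9 was at 260 ± 14.4 TPM, and Myh3 stood at 1.999, 1.80, 0.892 and 1.04 times its level.

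The light chains, troponins and tropomyosins combined slow, fast and non-muscle members. Mylpf, the fast regulatory light chain, was at 1963, 1994, 905 and 1033 TPM and held 96.7% ± 1.09 of the 5 regulatory light chains with values. Among essential light chains the non-muscle Myl6 held 78.6% ± 6.60 and the embryonic Myl4 16.6% ± 5.58, at 522, 478, 215 and 335 TPM. Troponin I was mainly the slow form Tnni1 (727 ± 148 TPM, 88.7% ± 1.33), and troponin T mainly the fast form Tnnt3 (737 ± 265 TPM, 77.3% ± 1.37), followed by the cardiac form Tnnt2, used in embryonic muscle (21.2% ± 1.54). The slow and cardiac Tnnc1 and the fast Tnnc2 had near equal means, at 502 ± 245 and 516 ± 136 TPM, with Tnnc1 at 709, 714, 243 and 344 TPM and Tnnc2 at 631, 636, 393 and 404 TPM. Tnnc1 was the higher in replicates 1 and 2 and Tnnc2 in replicates 3 and 4, where Tnnc2 held 61.8% and 54.0% of the pair, so their order was not settled. Tpm4, a tropomyosin of the cytoskeleton, held 57.5% ± 6.78 of the tropomyosins, and was at 52.1% and 51.1% in replicates 1 and 2 and at 64.0% and 62.6% in replicates 3 and 4. Tpm1, Tpm2 and Tpm3 held 21.7% ± 3.47, 13.03% ± 3.48 and 7.78% ± 0.159. Muscle and non-muscle transcripts of these genes could not be told apart. Among the actins, Actb held 43.3% ± 5.98, Actg1 24.7% ± 1.85, Actc1 22.5% ± 5.83, the smooth muscle Acta2 6.71% ± 1.24 and Acta1 2.81% ± 0.749. Acta2 was above Acta1 in level, at 1950, 1779, 1125 and 1249 TPM.

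**Figure D3:**
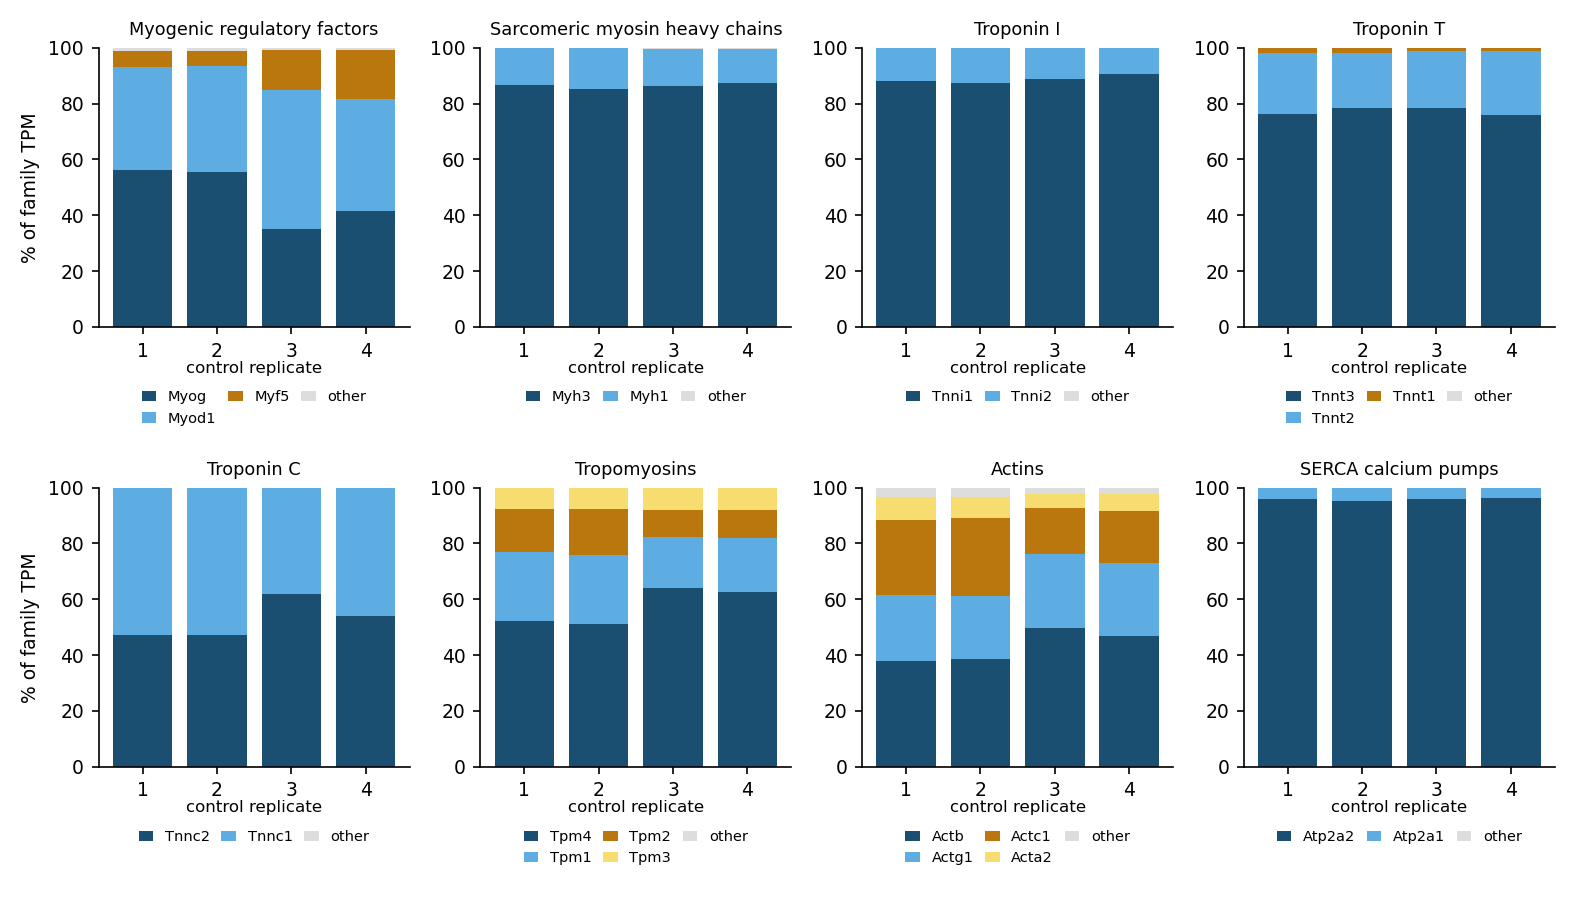
Share of the summed TPM of a family held by each member (%, stacked bars from 0 to 100) in control replicates 1 to 4, for 8 families. The embryonic Myh3, Tnni1, Tnnt3 and Atp2a2 held the largest share in every library, while Myog and Myod1, and Tnnc1 and Tnnc2, differ in order between libraries.

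In most metabolic and calcium-handling families the leading gene was not the form of adult muscle. The sarcoplasmic calcium pump was Atp2a2, the form of slow muscle and of most other cells, at 219 ± 8.02 TPM and 95.9% ± 0.452, with the fast adult Atp2a1 at 9.19 ± 0.737 TPM. Brain-type creatine kinase Ckb was at 23.4 ± 1.72 TPM, and the muscle form Ckm at 6.51, 5.10, 1.95 and 1.16 TPM. Ckb was 3.79, 4.91, 11.4 and 18.7 times above Ckm, and the mitochondrial muscle form Ckmt2 was at 0 counts in all 4 libraries. Eno3, the muscle enolase, was at 786 ± 88.5 TPM and held 31.7% ± 2.96 beside Eno1 (68.1% ± 2.90), whose counts had decimals in 3 of 4 libraries. Glycogen phosphorylase was near parity between the brain form Pygb (49.9% and 50.2%) and the muscle form Pygm (47.3% and 46.6%) in replicates 1 and 2, and Pygb held 70.0% and 69.9% in replicates 3 and 4. Slc2a3 and Slc2a1 carried 74.96% ± 1.63 and 24.7% ± 1.64 of the facilitative glucose transporters, and the insulin-regulated Slc2a4 of adult muscle 0.358% ± 0.0444. Hk1 held 88.7% ± 1.84 of the hexokinases, and Aldoa, the form of adult muscle and most other cells, 99.8% ± 0.0373 of the aldolases.

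Genes of the neuromuscular junction and of the cell surface were also present at this stage. The acetylcholine receptor subunit Chrnd was at 348, 339, 380 and 374 TPM and held 47.8% ± 2.40 of the 5 subunits. Chrna1 followed at 168 ± 12.99 TPM. The fetal subunit Chrng held 11.6% ± 1.22 and was above its adult replacement Chrne, which held 8.52% ± 1.05, in all 4 libraries. Unlike most genes of differentiation, Chrnd was not lower in replicates 3 and 4. Itga7 led the integrin alpha chains with 47.7% ± 6.53, at 53.9% and 52.7% in replicates 1 and 2 and 42.99% and 41.2% in replicates 3 and 4, where Itga5 and Itga3 took larger shares. Notch2 held 89.7% ± 1.48 of the Notch receptors, at 24.6 ± 2.001 TPM.

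Across the 42 sarcomere genes with values, 34 reached a mean of 1 TPM, 26 reached 10 TPM and 14 reached 100 TPM. Means of 10 and 100 TPM were reached by 43.8% and 8.78% of all genes. Together the sarcomere genes made up 1.24% ± 0.404 of the TPM. Their sum was 15818, 16033, 8551 and 9368 TPM, so the highest library was 1.87 times the lowest. The list of 33 mature fibre genes with values, which shares members with it, summed to 6400, 6565, 3831 and 3884 TPM, a ratio of 1.71. Within it, 22 genes reached 1 TPM, while Ckmt2, Pvalb (the calcium buffer of fast fibres) and Sln (sarcolipin) were at 0 counts in all 4 libraries. The oxygen-binding Mb was at 641, 637, 288 and 276 TPM. The giant proteins Ttn and Neb were expressed at 27.9 ± 3.43 and 16.1 ± 0.543 TPM and did not share the split, with Ttn at 23.9, 29.1, 26.7 and 31.9 TPM. Of the 34 sarcomere genes with a mean of at least 1 TPM, 32 had their highest library in replicate 1 or 2, and so did 21 of 26 early differentiation genes and 20 of 22 mature fibre genes, against 31.9% of all 11482 genes at that level.

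The cultures carried the matrix genes of connective tissue as well as muscle genes. Of the 48 matrix genes, 41 reached 10 TPM and 18 reached 100 TPM, against 43.8% and 8.78% of all genes. Their sum of 6865, 7053, 8008 and 8728 TPM was highest in replicate 4. Timp1, an inhibitor of matrix metalloproteinases, led with 1600, 1639, 2354 and 2142 TPM. Mmp2, a gelatinase, was at 383, 398, 649 and 645 TPM. Both were higher in replicates 3 and 4, whereas the collagen-binding Sparc (807 ± 51.8 TPM) was not. Fibronectin (Fn1) was at 468, 472, 405 and 467 TPM, with replicate 3 apart from the others. The basement membrane chains Col4a1 and Col4a2, whose genes are neighbours that share a promoter region in mammals, were at 64.4, 62.2, 108 and 131 TPM and at 25.3, 23.5, 40.7 and 49.2 TPM. Both were higher in replicates 3 and 4. Of the 45 matrix genes with a mean of at least 1 TPM, 37 had their highest library in replicate 3 or 4, against 68.1% of all genes at that level.

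Markers of other cell types were checked because the cells were not sorted. The label holds by the myogenic markers: all 12 had a mean of at least 10 TPM and 9 of at least 100 TPM. These levels were reached by 43.8% and 8.78% of all genes. The sum of the myogenic markers was 4137, 4137, 3092 and 2970 TPM. Of 15 fibroblast and fibro-adipogenic markers with values, 13 reached 1 TPM and 9 reached 10 TPM, and the sum was 877, 886, 990 and 1250 TPM. The highest were the collagens Col1a2 (213, 241, 155 and 230 TPM), Col3a1 (145, 138, 233 and 249 TPM) and Col1a1 (168, 174, 134 and 192 TPM) and the proteoglycans Dcn (128, 115, 201 and 229 TPM) and Lum (75.9, 72.7, 102 and 162 TPM). The receptor Pdgfra, which defines fibro-adipogenic progenitors in muscle, was at 7.21, 7.66, 9.10 and 14.9 TPM, and Pi16 was at 0 counts in all 4 libraries. For 10 of the 13 genes the highest library was replicate 4, which was also the highest for 4321 of all 11482 genes with a mean of at least 1 TPM. In bulk RNA a larger share of cells of a type and more RNA per cell cannot be told apart, and matrix genes are also made by myoblasts.

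Endothelial markers were low, with 4 of 13 at 3 counts or fewer in every library, and other cell types differed from marker to marker. Of 13 endothelial markers only Cdh5 reached a mean of 1 TPM, at 1.62 ± 0.429, with Pecam1 at 0.635 ± 0.182 TPM, and the sum was 3.54, 4.05, 4.74 and 5.83 TPM. Of 11 leukocyte markers with values, Cd68 (26.5, 23.6, 50.6 and 35.8 TPM), Cd14 (17.9, 14.9, 43.01 and 35.1 TPM), Fcer1g (13.1, 19.2, 32.1 and 21.9 TPM) and Csf1r (3.16 ± 1.03 TPM) reached 1 TPM. The defining leukocyte gene Ptprc (CD45) was at 0.005 ± 0.01 TPM, and Adgre1 and C1qb were at 0 counts in every library. The sum of these markers was 60.3, 60.9, 130 and 97.7 TPM. Among 12 smooth muscle and pericyte markers, 9 reached 1 TPM with a sum of 3159, 2971, 2114 and 2275 TPM, mostly from Acta2 and Des, while Kcnj8 was at 0 counts. Among 7 tenocyte markers the tendon regulator Scx was at 185, 205, 207 and 200 TPM and Fmod at 62.4 ± 17.9 TPM, but the mature tendon gene Tnmd was at 0.615 ± 0.219 TPM. The 8 Schwann and neural crest markers with values summed to between 13.5 and 19.4 TPM, mostly from Erbb3 (12.2 ± 2.91 TPM), with Sox10 at 0.203 ± 0.108 TPM. The 7 adipocyte markers with values summed to between 21.8 and 22.9 TPM, mostly from Lpl (17.1 ± 1.37 TPM), and Adipoq was at 0 counts.

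The study concerns cold tolerance and ferroptosis, an iron-dependent death by lipid peroxidation. Genes of ferroptosis defence and other antioxidant genes were listed together, and most were well expressed before cold. Of 41 listed genes with values, 40 reached 1 TPM, 37 reached 10 TPM and 20 reached 100 TPM. The last 2 levels were reached by 43.8% and 8.78% of all genes. The sum of the list was steady at 11689, 11187, 11074 and 11121 TPM, and its members are not all specific to ferroptosis. The iron store Fth1 was at 2729, 2464, 2240 and 2244 TPM, thioredoxin (Txn) at 1774 ± 118 TPM, Gstp1 at 1314 ± 60.2 TPM and the peroxiredoxin Prdx1 at 1226 ± 35.4 TPM, the last from counts with decimals in all 4 libraries. Gpx4, the glutathione peroxidase that reduces lipid peroxides in membranes, was at 198, 200, 216 and 191 TPM, at rank 747, 741, 691 and 788. It held 22.2% ± 2.10 of the glutathione peroxidases, below Gpx1 in all 4 libraries at 0.653, 0.670, 0.465 and 0.445 times its level. Slc7a11, the cystine carrier that feeds glutathione synthesis, was low, at 1.61, 1.41, 1.45 and 1.87 TPM. Of the superoxide dismutases Sod1 held 93.6% ± 0.463 of the TPM but 61.1% of the counts.

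RNA-binding and chaperone genes of the cold and heat shock families were abundant at 37 °C. Whether any of them was induced was not tested, because only the libraries at 37 °C were described. Of 25 listed genes with values, 23 reached 10 TPM and 17 reached 100 TPM, against 43.8% and 8.78% of all genes. The sum was 16304, 16368, 14464 and 15520 TPM. Rbm3, a cold-inducible RNA-binding protein, was at 733, 604, 498 and 493 TPM, at ranks between 197 and 272. Cirbp, the other well known member, had no row under that symbol and was not analysed here. Among the chaperones Hspa8 (2864 ± 122 TPM) and Hsp90ab1 (2654 ± 95.8 TPM) led, followed by the small heat shock protein Hspb8, at 1811, 1675, 1103 and 1193 TPM. Hspb8 held 66.9% ± 0.591 of the small heat shock proteins, Hspb1 15.5% ± 1.42 and Cryab 12.8% ± 1.63. The share of Hspb8 stayed between 66.4% and 67.7% although its level was higher in replicates 1 and 2, whereas Hspb1 was above Cryab in replicates 1, 2 and 3 and below it in replicate 4. The collagen chaperone Serpinh1 was at 1125 ± 138 TPM.

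Of 52 growth factor receptors and ligands with values, 45 reached 1 TPM, 26 reached 10 TPM and 3 reached 100 TPM, beside 43.8% of all genes with a mean of at least 10 TPM and 8.78% with a mean of at least 100 TPM. Their sum was 1169, 1196, 1340 and 1440 TPM. The 3 at 100 TPM or more were the matricellular Ccn1 (181 ± 8.56 TPM) and Ccn2 (144 ± 24.3 TPM) and the myostatin antagonist follistatin (Fst), at 97.2, 93.1, 177 and 187 TPM. Fgfr1 and Fgfr4, receptors for the factor in GM, were at 61.6 ± 4.63 and 31.7 ± 2.44 TPM and held 62.8% ± 1.76 and 32.4% ± 2.27 of the family. The list of 20 immediate early genes, which respond to serum and to handling, summed to 547, 548, 590 and 547 TPM. Jun (105 ± 7.28 TPM) was the 1 member at 100 TPM or more, and Fosl1 (65.6, 61.0, 99.1 and 86.7 TPM), Myc (75.6 ± 4.92 TPM), Fosl2 (66.0 ± 2.41 TPM) and Klf6 (48.2 ± 4.88 TPM) followed.

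**Figure D4:**
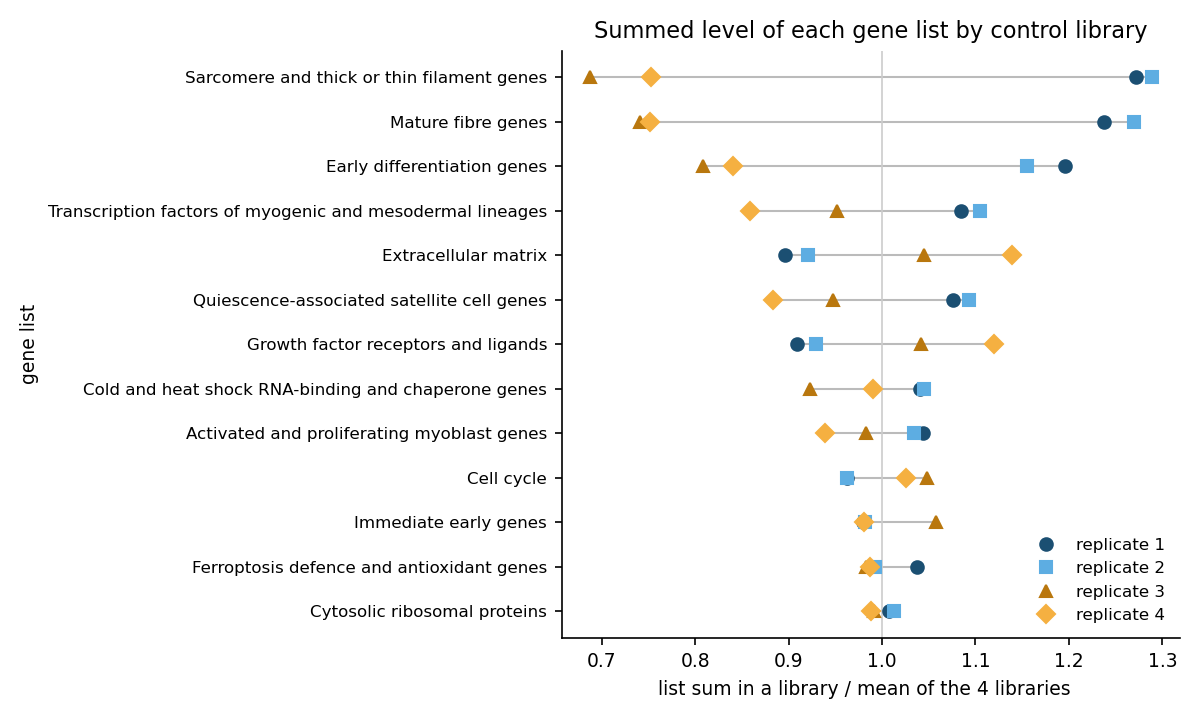
Summed TPM of each stage or function list in a control library divided by the mean over the 4 libraries (linear scale), with lists ordered by their spread. Sarcomere, mature fibre and early differentiation genes have replicates 1 and 2 above and replicates 3 and 4 below the mean, extracellular matrix genes the reverse, and ribosomal protein genes lie within a ratio of highest to lowest of 1.03.

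The libraries were close to each other over most genes. Across 11482 genes, which are not independent replicates, Spearman's rho of TPM was 0.997 between replicates 1 and 2, 0.995 between replicates 3 and 4, and between 0.984 and 0.986 for the other 4 pairs. Of the 7707 genes with a mean of at least 10 TPM, 4 differed by 2-fold or more between replicates 1 and 2 and 5 between replicates 3 and 4, against 83 to 107 in the other pairs. The common biological coefficient of variation, estimated from the counts with edgeR, was 0.131. The median CV of TPM was 15.7% for genes of 1 to 10 TPM, 8.36% for 10 to 100 TPM, 6.48% for 100 to 1000 TPM and 5.08% above.

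The highest library was at least 2 times the lowest for 163 of the 7707 genes (2.12%), of which 24 were LOC numbers and 15 had decimals in their counts. The highest library was replicate 3 or 4 for 99 of the 163 and replicate 1 or 2 for 64. Sarcomere genes gave 10 of their 26 members at this level, early differentiation genes 6 of 22, mature fibre genes 6 of 16 and matrix genes 6 of 41. Growth factor genes gave 1 of 26, and the 40 cell cycle genes, 74 ribosomal protein genes and 9 immediate early genes gave 0. Among genes with symbols the ratio was highest for Sp7, an osteoblast transcription factor, at 22.9, 24.4, 6.52 and 3.75 TPM, a ratio of 6.50. The 15 genes with the highest ratio included muscle genes: the muscle LIM protein gene Csrp3 was at 21.3, 29.1, 7.75 and 5.38 TPM, the myosin-binding Mybph at 70.2, 57.7, 16.1 and 19.3 TPM, the slow troponin Tnnt1 at 24.9, 23.4, 9.32 and 6.23 TPM and the calcium store protein Casq2 at 25.4, 21.8, 7.14 and 9.96 TPM. All 4 were lower in replicates 3 and 4.

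The imprinted Peg10 (47.2, 41.6, 12.2 and 13.2 TPM), the inhibin subunit Inha (19.5, 23.6, 6.58 and 6.09 TPM) and the connexin Gja5 (57.1, 61.6, 17.8 and 16.3 TPM) went the same way. Genes in the opposite direction were the interleukin 33 receptor Il1rl1, at 36.8, 31.9, 92.5 and 159 TPM, Tnfsf9, at 15.1, 19.4, 60.1 and 46.7 TPM, Slc43a3, at 4.31, 4.90, 22.5 and 15.3 TPM, and Pros1, Rbpms and Ddit4l, with ratios of 3.58, 3.52 and 3.49. In these 6 genes both replicates 3 and 4 were above both replicates 1 and 2. The metallothionein Mt2a, at 62.4, 48.3, 11.3 and 27.4 TPM, rested on a mean of 32 counts. Spp1 (osteopontin), named after its values were seen, was the most abundant symbol with a ratio above 3, at 479, 475, 1492 and 1351 TPM.

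At the other end, Ankrd52 was at 30.4, 30.3, 30.5 and 30.4 TPM, a ratio of highest to lowest of 1.01. Ruvbl2, Tarbp2, Runx1, Rpl17, Celf1, Polr2m, Mamstr and Gmds followed with ratios up to 1.01. Mamstr, a coactivator of Mef2, was at 15.7, 15.7, 15.9 and 15.9 TPM. Eef2, which moves the ribosome along the message, was the most counted of these, at 2033, 2028, 2053 and 2058 TPM. Among all 11482 genes with a mean of at least 1 TPM, the highest library was replicate 1 for 2069, replicate 2 for 1588, replicate 3 for 3504 and replicate 4 for 4321.

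**Figure D5:**
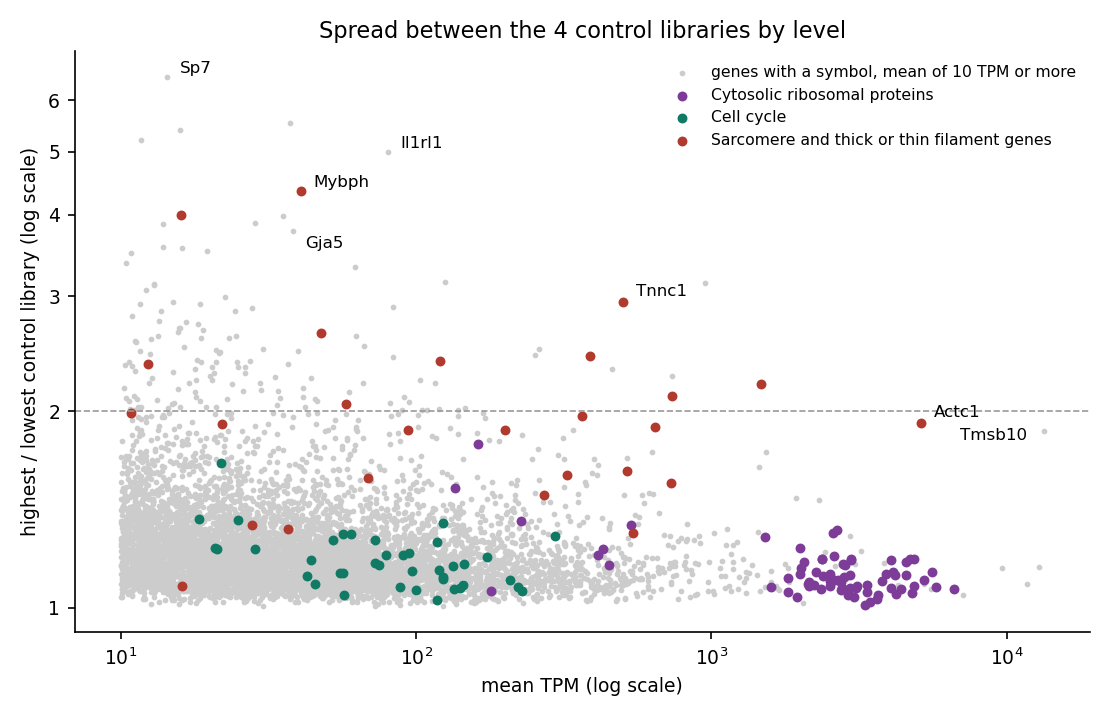
Ratio of the highest to the lowest control library (log scale) against mean TPM (log scale) for genes with a symbol and a mean of at least 10 TPM. Colours mark sarcomere, cell cycle and ribosomal protein genes and the dashed line a ratio of 2. Of the sarcomere genes 10 lie above the line, and 0 of the cell cycle or ribosomal protein genes do.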

How the data were processed

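RNA-seq of polyadenylated RNA was described in 4 control libraries. The authors read the libraries as paired-end reads on a DNBSEQ-G400. HISAT and HISAT2 are named in the submitters' processing notes, without versions. The counting program and the genome build are not given in the sources used here. The deposited table lists expected counts per gene, made by the authors and not normalized, and TPM values, which the authors scaled within each library. Its 8 columns of normalized counts were not used, nor were the cold libraries. Values were present for 17590 of 31581 entries, and all 17590 identifiers were found in a RefSeq annotation, used for names only. No sequences are shown.

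Means and SDs were computed over libraries from TPM with pandas 2.3.3 in Python 3.11.15. The spread between libraries was estimated with edgeR 4.0.16 in R 4.3.3 on expected counts rounded to whole numbers, with filterByExpr, TMM factors and an intercept-only design, and without a test. This estimate was tested on simulated data. A family share is a gene's part of the family's summed TPM. Pairwise correlations used log2(TPM + 0.1). Figures were drawn with matplotlib 3.10.9. Depth ranged from 16530747 to 18093905 expected counts, so rare transcripts are the least precise, and intervals cover counting error only.

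The gene lists (13 by stage or function, 9 by cell type and 39 paralog families examined, 601 of 653 symbols with values) and the members were chosen with earlier results of these data known. The COX6A, COX7A, COX8 and lactate dehydrogenase families were also listed, but too few of their members had values to give shares. Named genes were the 25 most abundant, the members of each family with at least 10% of its sum or its first member, the first 5 members of each other list and those at 0 counts throughout, the 10 most abundant listed transcription factors, the 15 largest and 10 smallest ratios of highest to lowest library among symbols at 10 TPM or more, and stage genes fixed by name. Spp1, Mb, Ttn, Neb, Pdgfra, Ptprc, Slc7a11, Myh2, Myh4, Eef1a2, Atp2a1, Slc2a4 and Chrne were named after their values were seen. Alternatives were CPM without length scaling, other thresholds and scalings, omission of genes with decimals or of ribosomal protein genes, and omission of each library. Most genes of the lists enter only counts and sums, and not every gene that the rule names is reported here.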

Additional observations from a re-analysis of the deposited data

Results flagged for a closer look

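Of 366 sets of 4 values examined (named genes, ratios, sums of lists and families, and family shares of named genes), 9 had a library that stood apart from the others, by a gap to its nearest neighbour divided by the whole range above Dixon's 95% critical value for 4 samples. Chance alone would give about 1 in 20, or 18.3. For Fn1 the gap was 0.93 of the range, and replicate 3 was low (405 TPM against 467 to 472 TPM). For Myl6 it was 0.904, with replicate 3 high (2003 TPM against 1743 to 1768 TPM). For Fosl2 it was 0.837, with replicate 3 high (69.6 TPM against 64.3 to 65.2 TPM). For the summed immediate early genes it was 0.981, with replicate 3 high (590 TPM against 547 to 548 TPM), a sum to which Fosl2 contributes. For the summed FGF receptors it was 0.897, with replicate 3 high (106.9 TPM against 94.6 to 95.9 TPM). For the share of Gpx8 among glutathione peroxidases it was 0.835, with replicate 3 low (13.4% against 15.2% to 15.5%). For the share of Col4a2 in type IV collagen it was 0.907, with replicate 2 low (25.2% against 26.3% to 26.4%). For the shares of Slc25a5 and Slc25a4, which as the only members of their family mirror each other, it was 0.911, with Slc25a5 high in replicate 4 (80.6% against 78.2% to 78.4%), from counts with decimals. No cause of these values was tested.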

How the results depend on the processing

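Without division by length, as CPM, the first 100 genes, ranked anew by CPM, held 19.9% in place of 36.5%. The Myog to Myod1 ratio was 0.595 in place of 1.18 and the Pax7 to Myod1 ratio 0.0406 in place of 0.0213. The list share was 1.02% in place of 0.704% for activated myoblast genes and 0.612% in place of 0.393% for cell cycle genes. For quiescence-associated genes it was 0.297% in place of 0.0996%. These follow from the scaling itself, since longer genes gather more reads. The first 100 genes held 31.3% when genes with decimals were left out and 30.0% without ribosomal protein genes, by construction. Genes with a ratio of highest to lowest library of at least 2 numbered 782 with a minimum mean of 1 TPM and 2450 with no minimum beyond 1 count in every library, because more low genes are examined. Leaving out each library in turn gave a common coefficient of variation of 0.126 to 0.137. The same omissions gave a Myog to Myod1 ratio of 1.07 to 1.34, a Pax7 to Myod1 ratio of 0.0194 to 0.0230, 119 to 143 genes with a ratio of at least 2 in place of 163, and 29 to 31 families led by a gene with over 50%. The leading gene of a family was another in counts for 3 of 39 families (Myod1 for Myog, Id3 for Id2 and Tcf4 for Tcf3), and without members with decimals Actc1, Eno3 and Prdx2 took the place of Actb, Eno1 and Prdx1. Without replicate 3 or without replicate 4, Tnnc1 had the higher mean TPM of the troponin C genes in place of Tnnc2. In counts the share of the leading gene moved beyond the spread between replicates in 24 families (Hspb8 to 83.5%, Tpm4 to 68.4% and Fgfr1 to 73.3%), as did 7 further list shares, and the Tmsb10 to Tmsb4x ratio fell below 1 (0.799 in place of 1.14) and the Ccnd1 to Ccnd3 ratio was 2.56 in place of 1.17, both chosen after seeing the data. No paired analysis was possible because the results come from no test and from only 1 group of libraries.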
